A study of Mus musculus with 8 samples.

Results

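The genes described here are 9 genes of protein kinase A (PKA), the cAMP-dependent protein kinase: Prkaca and Prkacb (catalytic subunits), Prkar1a, Prkar1b, Prkar2a and Prkar2b (regulatory subunits), Akap5 and Akap11 (anchoring proteins) and Pkia (an inhibitor peptide). The 9 genes were chosen with earlier results of these data known. Their probes were taken by gene name: every non-control probe whose gene name in the scanner files is one of the 9 was taken. This gave 18 probes of 55681 non-control probes on the array, and 17 of the 18, covering all 9 genes, were tested, having a signal well above background on 4 or more arrays of the 8. The samples were medium spiny neurons (MSNs, the projection neurons of the striatum) sorted from male mice at 4 weeks of age. The genotype was R6/2;Scn4b-Venus for 4 arrays, called R6/2 here, and WT;Scn4b-Venus for the 4 others, called WT. R6/2 mice carry a transgene made of exon 1 of the human huntingtin gene with an expanded CAG repeat, under the human promoter, and are a model of Huntington's disease. Both groups carry Scn4b-Venus, a fluorescent reporter of the sodium channel subunit gene Scn4b, and cells were sorted as Venus positive and propidium iodide negative. Nothing in the labels says whether an array is 1 mouse or a pool, so p-values measure the spread between these samples, part of which may be technical.

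PKA in its resting state is a tetramer of 2 catalytic and 2 regulatory subunits. Cyclic AMP binds the regulatory subunits and frees the catalytic ones, which then phosphorylate serines and threonines of channels, receptors, phosphatase inhibitors and the transcription factor CREB. A-kinase anchoring proteins bind the regulatory subunits and hold the kinase beside its substrates, and the PKI peptides block free catalytic subunits. In MSNs, D1 dopamine receptors and adenosine receptors coupled to the stimulatory G protein raise cAMP and D2 receptors lower it, so PKA stands between dopamine and much of what these neurons do. Type I and type II holoenzymes are named after their regulatory subunits, and RII-beta, the product of Prkar2b, is an abundant form in striatum.

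No probe of the 9 genes passed the test between R6/2 and WT at this age. In limma, 0 of 17 member probes passed an adjusted p of 0.05, where 1 of 41385 probes tested passed in all (0.00242%). Without adjustment, limma gave 0 of the 17 a p under 0.05, where it gave one to 7.02% of all probes tested (3.05% lower and 3.97% higher in R6/2), and the methods' t-test on the same values gave 3 of 17 without adjustment (2796 of all 41385 probes) and 0 after it. The unadjusted count of 0 in limma was 4 of 17 with eBayes with trend (3055 of all probes) and 3 with normexp background correction (2929). Differences, as log2 of R6/2 minus WT, ran from -0.37 (Akap5) to 0.66 (Prkar1b, its dimmer probe), with adjusted p from 0.727 to 0.993. Of the 17, 10 were negative and 7 positive, with a median of -0.03, beside a median of 0.05 over all probes tested. The 2 groups did not overlap for 2 probes, 1 lower in R6/2 (Akap5, against 2.26% of all probes) and 1 higher (Prkar1a, against 2.31%). Together these are 2 of 17, beside 4.58% of all probes. The 95% intervals of 14 of the 17 probes excluded a change of 1 on the log2 scale, a 2-fold change, in either direction; the 3 others belong to Prkaca, Prkar1a and Prkar1b. That count of 14 was between 10 and 12 when a single array was left out.

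**Figure D1:**
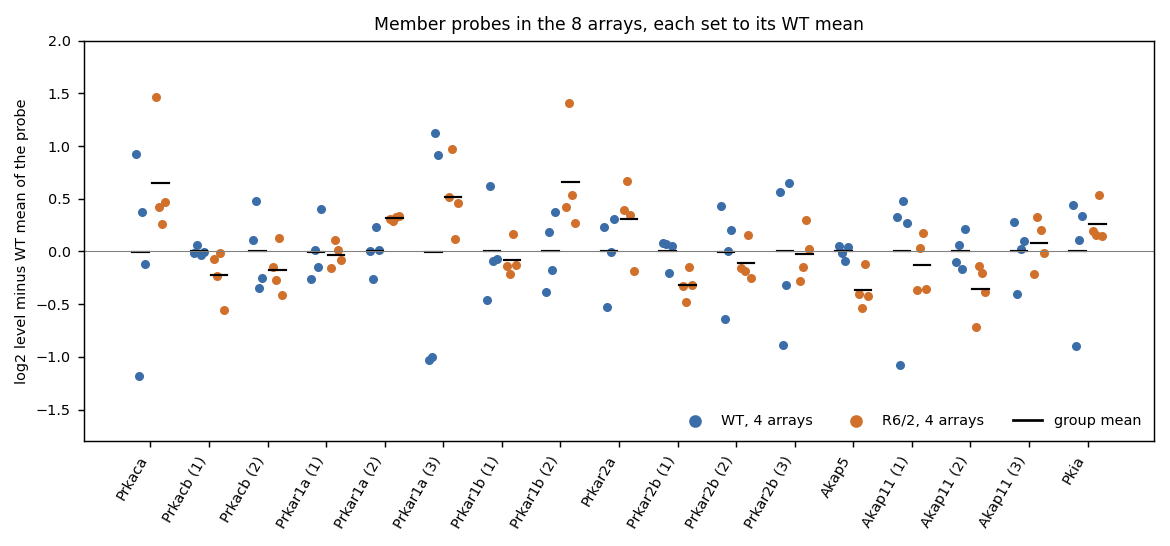
Log2 level of each of the 17 tested member probes in the 8 arrays, set to the WT mean of that probe (vertical axis); points are arrays, black bars are group means, and numbers in brackets count the probes of a gene from the brightest down. For Akap5 the 4 R6/2 arrays lie below the 4 WT arrays, for the second Prkar1a probe they lie above, and in the other 15 probes the groups overlap.

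Because the array reads each gene through 60-base probes, the first 30 bases of those that the results turn on are shown here, written 5′ to 3′ as the scanner files give them, with mm9 positions of the 30 bases. Akap5 and Prkar2b are shown because they had the lowest differences among the brightest probes of the 9 genes, though neither passed. A dimmer Akap11 probe, at -0.36, is not shown. Prkar1a and Prkar1b are shown because their brightest and second probes had differences of opposite sign, though no contrast between their probes passed the test given below.

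Akap5, chr12:77434981-77435010, plus strand: ccataagagtaccactttgtatcctcattg

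Prkar2b, brightest probe, chr12:32643396-32643425, minus strand: cggctatgaatgccagctctgttctgttca

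Prkar1a, brightest probe, chr11:109530521-109530550, plus strand: aaatgtacgtatgtgaatgatgtagaacgc

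Prkar1a, second probe, chr11:109529011-109529040, plus strand: gcttcttgtctctttatactaaaagttgct

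Prkar1b, brightest probe, chr5:139493301-139493330, minus strand: tctccatcccctatttatgtcaccaagcgc

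Prkar1b, second probe, chr5:139494181-139494210, minus strand: ggtccttgtaagattctctggtctaggccc

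The 18 member probes have a GC content of 35% to 45%. The files match the brightest probes of Prkar1a and Prkar1b to their RefSeq transcripts (NM_021880 and NM_008923), the second Prkar1b probe to a single cDNA (BC011424), and the third Prkar1a probe to an Ensembl transcript (ENSMUST00000106676). No exon, intron or UTR annotation on mm9 was used here. Levels below are log2 of the processed intensity over the array's 75th percentile, so 0 is the level of that percentile, and since probes differ in brightness for the same amount of RNA, a gap in level between probes is not read as a gap in RNA.

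The catalytic subunits carry the kinase activity. Prkaca, encoding C-alpha (chromosome 8, mm9 86519301 to 86519360, plus strand), had log2 levels of 2.45, 0.35, 1.90 and 1.41 in WT replicates 1 to 4 and of 2.99, 1.95, 1.79 and 2.00 in R6/2 replicates 1 to 4. Among the WT arrays replicate 2 was far below the others, and the groups overlap. Its difference was 0.65 ± 0.47 (SE, 95% interval -0.42 to 1.73, limma adjusted p = 0.805), all 4 R6/2 arrays being above the WT mean. It was 0.26 without WT replicate 2, 0.38 without R6/2 replicate 1 and 0.96 without WT replicate 1, so its size rests on single arrays.

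Prkacb, encoding C-beta, was measured by 2 probes on chromosome 3 (mm9 146392689 to 146392898, minus strand). Its brightest probe had levels of 6.17, 6.26, 6.16 and 6.18 in WT and of 6.12, 5.96, 6.17 and 5.64 in R6/2. The WT arrays lay close together, R6/2 replicate 4 was lowest, and R6/2 replicate 3 fell inside the WT range. This probe gave -0.22 ± 0.19 (SE, limma adjusted p = 0.842), and -0.11 without R6/2 replicate 4. The other gave -0.18 ± 0.25 (SE, limma adjusted p = 0.910), and from -0.29 to -0.016 when an array was left out. The 2 catalytic genes thus had differences of opposite sign, neither beyond the spread between arrays.

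Regulatory subunits of type I bind cAMP and keep the kinase largely in the cytosol. Prkar1a, encoding RI-alpha, had 3 tested probes on chromosome 11. The brightest had levels of 5.06, 5.33, 5.17 and 5.72 in WT and of 5.17, 5.43, 5.33 and 5.24 in R6/2, a difference of -0.03 ± 0.21 (SE, limma adjusted p = 0.984) between overlapping groups.

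The second Prkar1a probe had levels of 3.29, 3.03, 3.52 and 3.30 in WT and of 3.60, 3.58, 3.62 and 3.62 in R6/2. All 4 R6/2 arrays were above every WT array and lay within a narrow range. Its difference was 0.32 ± 0.18 (SE, 95% interval -0.10 to 0.73, limma adjusted p = 0.770), so separate groups did not make a call. In the authors' deposited table, this second probe has a fold of 1.24 up at p = 0.0202 and a corrected p of 0.8355. The third probe, of the Ensembl transcript, gave 0.51 ± 0.54 (SE, limma adjusted p = 0.878), with WT replicates 1 and 2 at -0.91 and -0.88 and WT replicates 3 and 4 at 1.25 and 1.04. Its R6/2 arrays, at 0.64, 1.10, 0.24 and 0.58, all lay within the WT range. Its difference was 0.17 and 0.18 without WT replicate 1 or 2, 0.89 and 0.82 without WT replicate 3 or 4, and 0.089 with array weights.

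Prkar1b, encoding the neuronal RI-beta, had 2 tested probes on chromosome 5. The brightest had levels of 3.51, 4.59, 3.88 and 3.89 in WT and of 3.82, 3.75, 4.13 and 3.84 in R6/2, all R6/2 values lying within the WT range (-0.08 ± 0.26, SE, limma adjusted p = 0.965). The second had levels of 0.02, 0.60, 0.23 and 0.79 in WT and of 0.83, 1.81, 0.95 and 0.68 in R6/2. There R6/2 replicate 2 was highest and R6/2 replicate 4 fell inside the WT range. Its difference of 0.66 ± 0.31 (SE, 95% interval -0.04 to 1.36) had the lowest unadjusted p of the 17 probes, 0.061 in limma's test across all probes, with an adjusted p of 0.727. Without R6/2 replicate 2 it was 0.41.

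Regulatory subunits of type II bind most A-kinase anchors and so tie the kinase to membranes and the cytoskeleton. Prkar2a, encoding RII-alpha (chromosome 9, mm9 108650854 to 108650913), had levels of -0.72, -1.47, -0.96 and -0.64 in WT and of -0.55, -0.27, -0.60 and -1.13 in R6/2. The groups overlap through R6/2 replicate 4, and the difference was 0.31 ± 0.27 (SE, limma adjusted p = 0.842). It was 0.13 without WT replicate 2, 0.19 without R6/2 replicate 2 or with normexp, and 0.47 without R6/2 replicate 4. A further Prkar2a probe, of an Ensembl transcript some way upstream, was well above background on 2 WT arrays and 1 R6/2 array and was not tested.

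Prkar2b, encoding RII-beta, had 3 tested probes on chromosome 12 (mm9 32643366 to 32644751, minus strand). The brightest had levels of 4.13, 4.13, 3.85 and 4.10 in WT and of 3.72, 3.57, 3.91 and 3.74 in R6/2. All R6/2 arrays were below the WT mean, but R6/2 replicate 3 was above WT replicate 3. The difference was -0.32 ± 0.18 (SE, 95% interval -0.73 to 0.10, limma adjusted p = 0.770), a fold of 0.803. The other 2 probes gave -0.11 ± 0.26 and -0.02 ± 0.37 (SE, limma adjusted p = 0.952 and 0.993), with overlapping groups. In the authors' deposited table, the brightest probe has a fold of 1.25 down at p = 0.0171 and a corrected p of 0.823.

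Anchors place PKA at its targets. Akap5 (AKAP150 in mouse) holds PKA, calcineurin and protein kinase C at the postsynaptic membrane beside AMPA receptors and calcium channels. Its probe had levels of 5.74, 5.67, 5.59 and 5.73 in WT and of 5.28, 5.15, 5.57 and 5.26 in R6/2. Every R6/2 array was below every WT array, though R6/2 replicate 3 lay only just under WT replicate 3. The difference was -0.37 ± 0.18 (SE, 95% interval -0.78 to 0.04, limma adjusted p = 0.736), a fold of 0.774, and -0.35 within the first slide. The authors' deposited table gives it a fold of 1.29 down at p = 0.00814 and a corrected p of 0.778.

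Akap11 (AKAP220) binds PKA together with GSK3-beta and protein phosphatase PP1. It had 3 tested probes on chromosome 14, minus strand. The brightest (mm9 78913214 to 78913273) had levels of 4.41, 3.00, 4.57 and 4.35 in WT and of 3.72, 4.11, 4.26 and 3.73 in R6/2. WT replicate 2 was lowest and the other 3 WT arrays were above all R6/2 arrays, giving -0.13 ± 0.36 (SE, limma adjusted p = 0.960). The probe nearest the 3′ end (mm9 78892256 to 78892315) had levels of 3.29, 3.44, 3.22 and 3.60 in WT and of 2.67, 3.25, 3.19 and 3.00 in R6/2. Only R6/2 replicate 2 reached into its WT range, and its difference was -0.36 ± 0.21 (SE, limma adjusted p = 0.772), and -0.24 without R6/2 replicate 1. The probe between them gave 0.08 ± 0.23 (SE, limma adjusted p = 0.961).

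Pkia encodes the alpha form of the PKI inhibitors, which block the active site of free catalytic subunits and carry them out of the nucleus. Its levels were 3.36, 2.02, 3.03 and 3.26 in WT and 3.12, 3.08, 3.46 and 3.06 in R6/2. WT replicate 2 was well below the other 7 arrays. The difference was 0.26 ± 0.31 (SE, limma adjusted p = 0.889), and -0.04 without WT replicate 2.

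**Figure D2:**
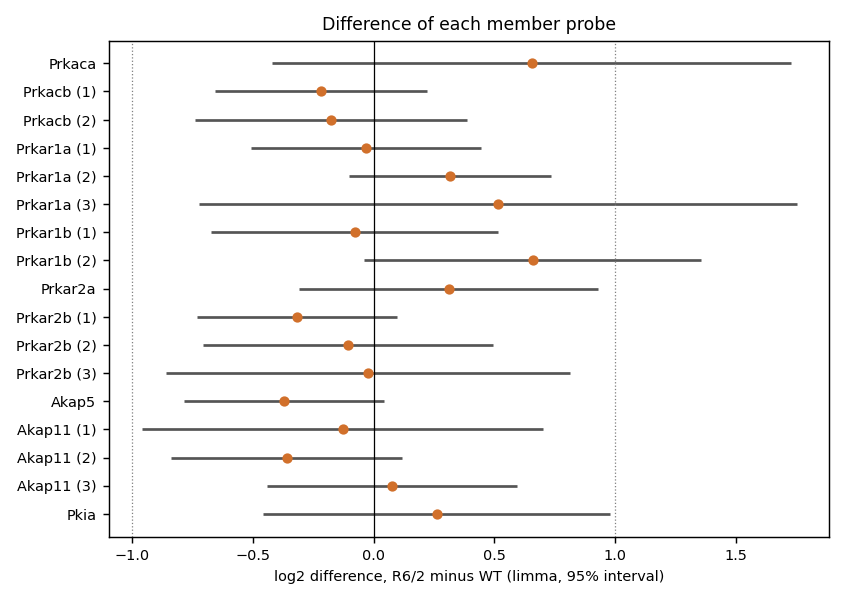
Log2 difference of R6/2 minus WT (horizontal axis) for the 17 tested member probes, as limma's estimate (point) with its 95% interval (line); dotted lines mark a change of 1 on the log2 scale in either direction. Every interval includes 0, and only those of Prkaca, the third Prkar1a probe and the second Prkar1b probe reach past a dotted line.

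Probes of the same gene did not all give the same value. Within each array the brightest probe was subtracted from each other probe of its gene, and these within-gene contrasts were compared between genotypes for the 8 pairs available, a test chosen after seeing the values. The widest was that of the Prkar1b probes, whose contrast was -3.56 ± 0.37 in WT and -2.82 ± 0.59 in R6/2 (SD, n = 4 each), a difference of 0.74 (two-sided exact permutation p = 0.0857, adjusted over 8 pairs 0.686). For the second Prkar1a probe the difference was 0.35 (exact permutation p = 0.200, n = 4 each, adjusted 0.800). The smallest p that 4 against 4 arrays allow is 0.0286 before adjustment, so 1 pair alone could not pass after adjustment over 8. The adjusted values thus do not decide whether the probes of a gene differ. Ordered along the gene, the probe nearest the 3′ end had a lower difference than the most upstream one in 4 of the 5 genes with more than 1 tested probe (Prkar1a, Prkar1b, Prkar2b and Akap11, not Prkacb). Among 3840 other RefSeq accessions with at least 2 tested probes, the one nearest the 3′ end was below the most upstream one in 55.4%, with a median difference between them of -0.06. Those are probes of 1 accession each, while the upstream probes of Prkar1a and Prkar1b belong to other transcripts than the RefSeq one.

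**Figure D3:**
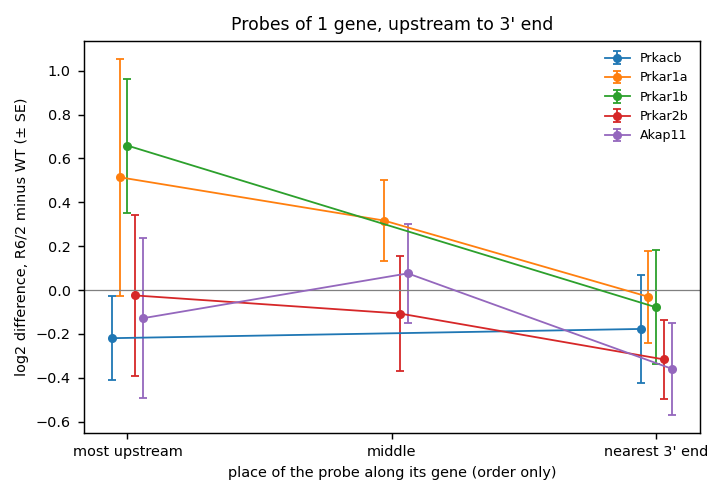
Log2 difference of R6/2 minus WT with its standard error (vertical axis) for the probes of the 5 genes with more than 1 tested probe, placed by order from the most upstream to the one nearest the 3′ end (horizontal axis, order only). In Prkar1a, Prkar1b, Prkar2b and Akap11 the last point is the lowest, and in Prkacb it is not.

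The genes whose levels over the 8 arrays were most like those of Prkar2b were found by the root mean square difference of centred log2 levels, over 26872 genes and transcripts with 1 probe each. They were Tmed9 (0.04), Cox7a2l (0.05) and Tmem191c (0.06). Among the other PKA genes, Akap5 stood at rank 5 (0.07) and Prkacb at rank 352 (0.17), while Prkaca stood at rank 22497 (0.83), where the median over all genes was 0.47. Such a distance is small for any gene with a small difference and little spread, and carries no test.

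CREB, which PKA activates, binds the cAMP response element, whose letters are TGACGTCA, with TGACG as its shorter form. Promoter windows of 300 bases (250 before to 50 after a start) from RefSeq on GRCm38.p6 were found for 8 of the 9 genes, Pkia having no entry. The letters TGACGTCA lie in a window of 1 of these genes, Prkar1a, and in 2.03% of 27025 genes. The shorter form, on either strand and counting those inside the longer one, lies in a window of 6 of the 8, and in 23% of all genes. Genes with more listed starts have more windows: counted by window, it lies in 8 of the members' 22 (36.4%) and in 20.8% of all 32851. Windows of nearby starts can overlap, so a match can count more than once. The same TGACGTCA of Prkar1a lies in 2 overlapping windows. Prkar2b and Akap5 hold neither in their windows. For each of the 6 genes, 30 bases around the match nearest a start (for Prkar1a, around the longer form) are shown 5′ to 3′ on the gene's strand, with the matched letters in capitals (CGTCA is TGACG on the other strand).

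Prkar1a, chr11:109650882-109650911, plus strand: ggccagagcgaggcgcatTGACGTCAgcag

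Prkaca, chr8:83972960-83972989, plus strand: gggctgcgggggCGTCAcggacagaggact

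Prkacb, chr3:146813031-146813060, minus strand: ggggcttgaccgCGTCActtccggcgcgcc

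Prkar1b, chr5:139150033-139150062, minus strand: tagagggcggagTGACGggcaggaggacga

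Prkar2a, chr9:108692127-108692156, plus strand: cgcggccgcgtgCGTCAcaacccgggcgcc

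Akap11, chr14:78536972-78537001, minus strand: ctccgCGTCAcgTGACGggcgacccgcagc

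A match is a description of letters and does not show binding. The Prkar1a match begins 39 bases after a listed start, those of Prkaca and Prkar2a 6 and 4 bases before one, and that of Akap11 holds the shorter form on both strands within 12 bases.

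Other genes of the pathway were taken from lists of anchors, inhibitors, cAMP effectors, PKA substrates with CREB factors, and genes that make or break down cAMP, with 1 probe per gene. The lists, too, were chosen with earlier results of these data known. In limma 0 genes of any of the 5 lists passed over all probes tested, beside 0.00371% of all genes with 1 probe each. Without adjustment, p was under 0.05 for 3 of 20 other anchors, 2 of 3 other inhibitors and kinase, 1 of 6 other effectors, 5 of 19 substrates and CREB factors and 8 of 25 genes of cAMP production and breakdown, beside 6.59% of all genes. A negative difference was seen for 14 of 20, 2 of 3, 4 of 6, 14 of 19 and 22 of 25 of these genes, and for 6 of the 9 PKA genes, beside 46% of all genes. The median difference was -0.56 for the 3 other inhibitors and kinase, -0.40 for cAMP production and breakdown, -0.23 for the other anchors, -0.18 for substrates and CREB factors, -0.10 for other effectors and -0.08 for the 9 PKA genes, beside 0.03 over all genes. Whether these medians differ was not tested.

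**Figure D4:**
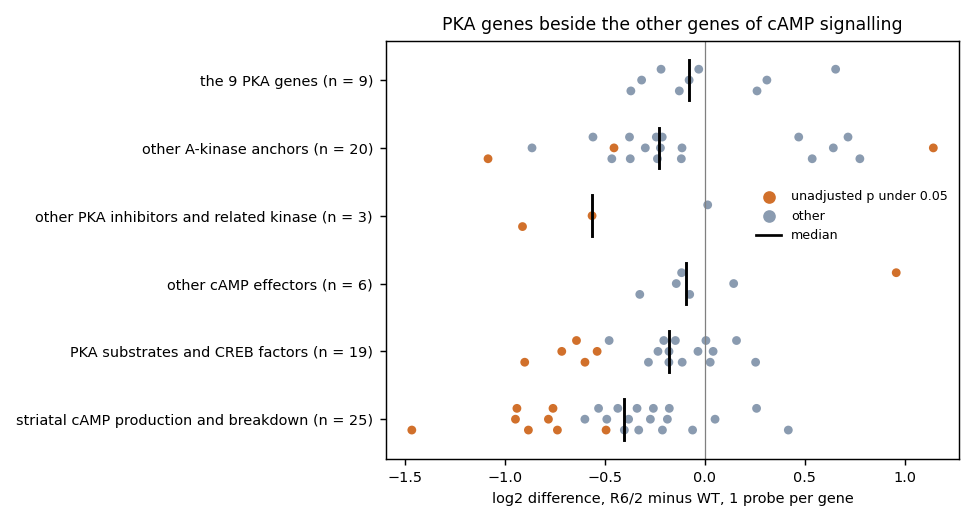
Log2 difference of R6/2 minus WT (horizontal axis) for the brightest tested probe of each gene, for the 9 PKA genes and the 5 lists of other cAMP signalling genes; points are genes, orange where the unadjusted limma p is under 0.05, and black bars are medians. The PKA genes lie between -0.37 and 0.65 with none in orange, and the genes of cAMP production and breakdown have a median of -0.40.

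Among the other anchors, Myrip, which links PKA to myosin and secretory granules, had levels of 0.77, 0.43, 0.82 and 0.97 in WT and of -1.12, 0.13, -0.11 and -0.24 in R6/2. All R6/2 arrays were below all WT arrays (-1.08 ± 0.30, SE, limma adjusted p = 0.568). Akap9, a Golgi and centrosome anchor, had levels of 5.38, 5.12, 5.18 and 5.52 in WT and of 4.72, 4.85, 5.04 and 4.79 in R6/2, also without overlap (-0.45 ± 0.19, SE, limma adjusted p = 0.702). Ezr (ezrin) went the other way at 1.14 ± 0.39 (SE, limma adjusted p = 0.644), with 3 of 4 WT arrays well above background, and at 0.41 with normexp. Over the 20 other anchors, R6/2 was lower without overlap for 2 and higher for 1, beside 2.26% and 2.31% of all probes. Akap13 had a difference of -0.86 (limma adjusted p = 0.740), its 3 other probes ranging from -0.22 to 0.34, and was at -0.47 without WT replicate 1 and -0.52 with array weights.

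Of the other PKI genes, Pkig had a difference of -0.56 ± 0.22 (SE, limma adjusted p = 0.689), with its other probe at 0.16, and Pkib one of 0.01 ± 0.18. Prkx, a kinase related to the catalytic subunits, had -0.91 ± 0.39 (SE, limma adjusted p = 0.704), while its other probe was at 1.54. It was at -0.57 without R6/2 replicate 4 and -0.59 with array weights. Among other cAMP effectors, Popdc2 had 0.96 (limma adjusted p = 0.670), with 3 of 4 WT arrays well above background, and 0.26 with normexp. Rapgef2, Popdc3 and Rapgef4 had -0.33 (-0.12 without R6/2 replicate 1), 0.14 and -0.14.

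The 4 genes with the smallest p in the list of substrates, and the 4 in that of cAMP production, had negative differences in their brightest probes. Among substrates, Arpp21 (a cAMP-regulated phosphoprotein) had -0.90, Ptpn5 (the striatal phosphatase STEP) -0.60, Rasgrp2 (a Rap exchange factor) -0.64 and Cacna1c (an L-type calcium channel) -0.72, at limma adjusted p from 0.438 to 0.661. The groups did not overlap for any of these 4, which were picked by their small p. R6/2 was lower without overlap for 6 of the 19 genes of that list, beside 2.26% of all probes. The other Cacna1c probe was at 0.31 and the 2 other Arpp21 probes at -0.24 and -0.15. Upstream, Adcy5 (the main striatal adenylate cyclase), Drd2, Pde10a and Pde1c had -0.95, -0.88, -0.94 and -1.47, at limma adjusted p from 0.552 to 0.568. The 2 other Pde1c probes were at -0.31 and 0.66, those of Adcy5 at -0.74 and -0.50, and those of Pde10a at -1.23 and -1.19. The groups overlapped for Pde1c but not for Adcy5, Drd2 and Pde10a. R6/2 was lower without overlap for 6 of the 25 genes of cAMP production and breakdown. The CREB factors Creb1, Crem, Atf1 and Crtc1, chosen for naming after their values were seen, had 0.25, 0.16, -0.15 and 0.04 with overlapping groups, the other Creb1 probe being at 1.30.

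The arrays differed in signal and in marker content. Probes well above background made up 50.1% to 76.2% of all probes in WT, WT replicate 1 being lowest, and 74.0% to 78.8% in R6/2. WT replicate 2 gave the lowest level of the 8 arrays for 8 of the 17 member probes and WT replicate 1 for 4. Each of these arrays also gave the highest level for 3. How often they are lowest over all probes was not counted. All 14 MSN markers were tested and had negative differences. The summed level of these markers, as a ratio to the array's 75th percentile, was 1079 to 1285 in WT and 742 to 823 in R6/2, without overlap. In such samples fewer cells of a type and less RNA per cell cannot be told apart. The difference for Scn4b, whose reporter set the sort, was -1.15 (limma adjusted p = 0.552). Summed levels of 8 oligodendrocyte markers were 7.43 to 67.8 in WT, highest in WT replicate 2, and 6.53 to 15.6 in R6/2, all 8 with negative differences. Those of 7 astrocyte markers were 2.15 to 5.62 in WT and 2.14 to 5.63 in R6/2, and those of 3 cortical neuron markers 0.958 to 1.13 and 0.847 to 1.79. Microglia markers summed to 179 to 199 in WT and 148 to 173 in R6/2, most of it from the brightest Itgam probe. The 2 other Itgam probes had differences of -0.06 and 0.26. Of the 7 microglia markers tested, 3 had negative differences and 4 positive ones. The cortical marker Neurod6 and the interneuron marker Calb2 were above background on no array. The part of any of these in the values of the PKA genes was not tested.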

How the data were processed

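Total RNA of sorted MSNs was labelled with Cy3 and hybridised to 8 one-colour Agilent arrays, 4 per genotype, per the labels. Spots were read with Feature Extraction 10.7.3.1 per the file headers, whose probe positions are on mm9. The deposited scanner files give a processed intensity per spot, corrected for background by that software. The authors' deposited value table is on the log2 scale, and served as an alternative. The authors' deposited comparison table gives a p-value, a corrected p-value and a fold per probe.

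From the intensities, log2 was taken and the 75th percentile of each array's non-control probes was subtracted. Outlier spots were left out and spots of a probe averaged. In R6/2 replicate 3, 1 garbled line of the file was left out. Probes were tested where 4 or more arrays had them well above background, 41385 of 55681, with limma 3.58.1 in R 4.3.3 (a fit of genotype, eBayes, two-sided, Benjamini-Hochberg over all tested probes, threshold 0.05). A fold is 2 to the power of the log2 difference. The limma step was tested on simulated data with the spread of these arrays. There it missed most of the probes that had been given a change of 2 on the log2 scale, up or down. The simulation covered all tested probes, dim ones included. Their median SE in these data was 0.33, beside 0.26 for the member probes. A probe that did not pass here may thus still differ. The number of arrays limits the precision.

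A gene with several tested probes is led by the one with the highest mean level, also called the brightest. Every probe of the 9 genes was described, as were up to 4 genes with the smallest p from each pathway list and the 3 genes most like Prkar2b. Members and lists were chosen with earlier results of these data known. The value of 1 further marker gene is not reported here. Replicate numbers in the labels were checked for pairing: same-numbered arrays correlated at -0.04 to 0.02 in their deviations from the group means, so they were not paired. Arrays 1 to 4 of WT and 1 to 3 of R6/2 lie on the first slide, and R6/2 replicate 4 on another with a scan of its own. The alternatives were quantile normalization, median centring, normexp, the authors' log2 values, other filters on dim probes, 1 probe per gene, a replicate block, eBayes with trend, array weights, the methods' t-test, the first slide alone, and leaving out each array. The first slide alone and leaving out R6/2 replicate 4 are the same fit.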

Additional observations from a re-analysis of the deposited data

Results flagged for a closer look

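Of 34 groups of 4 arrays (17 member probes in each genotype), 3 held an array far from the other 3 by Dixon's test, which flags about 5% of groups by chance. For the brightest Prkar2b probe, WT replicate 3 was lowest at 3.85, with the next WT array at 4.10. For the brightest Akap11 probe, WT replicate 2 was lowest at 3.00, with the next at 4.35. For Pkia, R6/2 replicate 3 was highest at 3.46, with the next at 3.12.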

How the results depend on the processing

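No member probe passed the threshold under any of the 20 alternatives. Over 332 pairs of a member probe and an alternative, 315 kept the sign and the lowest adjusted p was 0.466 (Akap5, limma's eBayes with trend). None of the 377 pairs of a named pathway gene and an alternative passed either. The first slide alone is the same fit as leaving out R6/2 replicate 4, and these counts hold it under both names. The other filters, 1 probe per gene, the replicate block, eBayes with trend and the methods' t-test leave a member probe's difference unchanged. Pairs with these alternatives could not change sign, so the count of kept signs includes them by design. The count of all probes called, 1 as reported, was 2 with quantile normalization, 8 with normexp, 7 where probes had to be well above background on all 8 arrays, 8 with eBayes with trend, 8 with array weights, 0 with the methods' t-test, 0 within the first slide and 0 to 3 when an array was left out (3 without WT replicate 1). With a replicate block it was 0, and 0 of 17 member probes were called. The count of 14 intervals that excluded a change of 1 was 11 with that block.

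Small differences changed sign. The brightest Prkar1a probe was at 0.050 with quantile normalization and 0.015 with normexp, where Popdc3 was at -0.068 and -0.0023. With median centring the Akap11 probe between the others was at -0.021 and Pkib at -0.083, and Pkib was at -0.038 within the first slide. Array weights put the dimmer Prkacb probe at 0.011 and the brightest Prkar1b probe at 0.00041. When an array was left out, values ran from -0.32 to 0.037 for the Prkar2b probe of middle brightness, from -0.32 to 0.19 for the dimmest one, from -0.23 to 0.13 for the brightest Prkar1b probe, from -0.12 to 0.10 for the brightest Prkar1a probe, from -0.49 to 0.033 for the brightest Akap11 probe, from -0.059 to 0.17 for the one that lies between the others on the chromosome, from -0.037 to 0.41 for Pkia, from -0.072 to 0.052 for Pkib and from -0.42 to 0.050 for Rapgef4. The cause was not tested. Signal over background limits the further Prkar2a probe, for which no fold was computed.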
